A study of Mus musculus with 2 samples.

Results

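The genes described here are the phase I and phase II detoxification families of the mouse as the array names them: the Cyp1 and Cyp2 cytochromes P450, the UDP-glucuronosyltransferases Ugt1 and Ugt2, the glutathione S-transferases Gsta, Gstm, Gstp and Gstt, the sulfotransferases Sult, the carboxylesterases Ces1 and Ces2, and the epoxide hydrolases Ephx. The rule takes the non-control spots whose gene name starts with one of these prefixes. This gave 118 genes with 163 probes in 172 spots, of 26582 genes or unnamed probes on the array. Because the choice is by prefix, it also takes in 4 genes of Cyp11 to Cyp19 and 7 genes of Cyp20 to Cyp27, which act mainly on steroids, retinoids, vitamin D or bile acid precursors and are kept apart below.

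Total RNA of the intestine came from male C57BL/6 mice of 20 weeks on a normal diet, either wild type or with a gut-specific deficiency of GDE5, the product of Gpcpd1, which splits glycerophosphocholine. Both RNAs were set against each other on 2 dual-colour Agilent arrays of 1 slide with the dyes exchanged: in replicate 1 Cy3 marked the RNA labelled knockout, and in replicate 2 Cy5 did. The design text speaks of 5 mice. The promoter that removes GDE5 from the gut, the intestinal segment taken, any pooling of animals and any RNA extract common to the arrays are not given in the sources used here, so the spread between the arrays may be technical only.

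Phase I enzymes, chiefly the P450s, esterases and epoxide hydrolases, oxidise or cleave foreign and endogenous compounds. Phase II enzymes then attach glucuronic acid, glutathione or sulfate, which makes the products easier to excrete. The gut epithelium, mostly that of the small intestine, carries many of these enzymes as a first barrier to swallowed compounds, and nuclear receptors and the aryl hydrocarbon receptor AHR set the level of several of them.

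Most of the defining markers of intestinal epithelium were bright in both RNAs, and all 12 were tested. Their summed processed intensity was 1365436 and 1390891 in the RNA labelled knockout against 1417604 and 1410409 in wild type. The brightest genes make up most of these sums, and the dimmest, Cdx1, read 277 and 240 against 240 and 272. The targeted gene was not lower where the label says knockout: 3 of 4 Gpcpd1 probes were higher there on each array, with means of 0.45, 0.82 and 0.63 on the log2 scale of knockout over wild type, and the other had -0.30 and 0.05. Which exons are deleted is not given, so a probe outside them checks nothing, and each direction below rests on the dye labels. Well above background were 69.3% to 76.1% of gene spots in each channel, and with 2 arrays the precision is low. Over all 18988 tested genes the ratios of the arrays correlated at -0.02, that is, most of the small ratios were not repeated, and a mean ratio between -0.10 and 0.08 covers the middle of the distribution from the lower to the upper quartile.

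Of the 118 members, 91 were tested, meaning that both arrays had a probe well above background in one and the same genotype, which is 77.1% against 71.4% of all genes on the array. For most of them the RNAs differed little: the mean log2 ratio was under 0.2 in size for 67 members, or 73.6%, against 76.7% of all tested genes. No member passed limma's test after Benjamini-Hochberg adjustment over all genes, where 38 genes or 0.2% did, and the smallest adjusted p of a member was 0.234. At an unadjusted p under 0.05, limma gave 8 members, or 8.79%, against 945 or 4.98% of all tested genes. These were Cyp1a1, Cyp1a2, Cyp2d34 and Cyp2e1 with lower values in the RNA labelled knockout, and Cyp2a5, Cyp21a1, Ugt2a3 and Ugt2b35 with higher values. Cyp1a2, Cyp2a5 and Cyp21a1 were not well above background in every channel. Cyp1a2 was tested only through wild type and Cyp2a5 only through the knockout, where each read higher, so the filter favoured their direction. The share of 8.79% includes them and does not show an excess of changed members.

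By size, 2 members were at least 1.5-fold lower on both arrays, Cyp1a1 and Cyp2d34, where 0.295% of all tested genes were. None was 1.5-fold higher on both arrays, where 0.542% of all tested genes were. By sign alone, 25 members were lower on both arrays, or 27.5% against a background of 21.1%, and 12 were higher on both, or 13.2% against 20.2%. The remaining 54 had opposite signs on the arrays. The median over the members was -0.06, against -0.02 over all tested genes, with medians of -0.03 and -0.06 on the separate arrays.

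**Figure D1:**
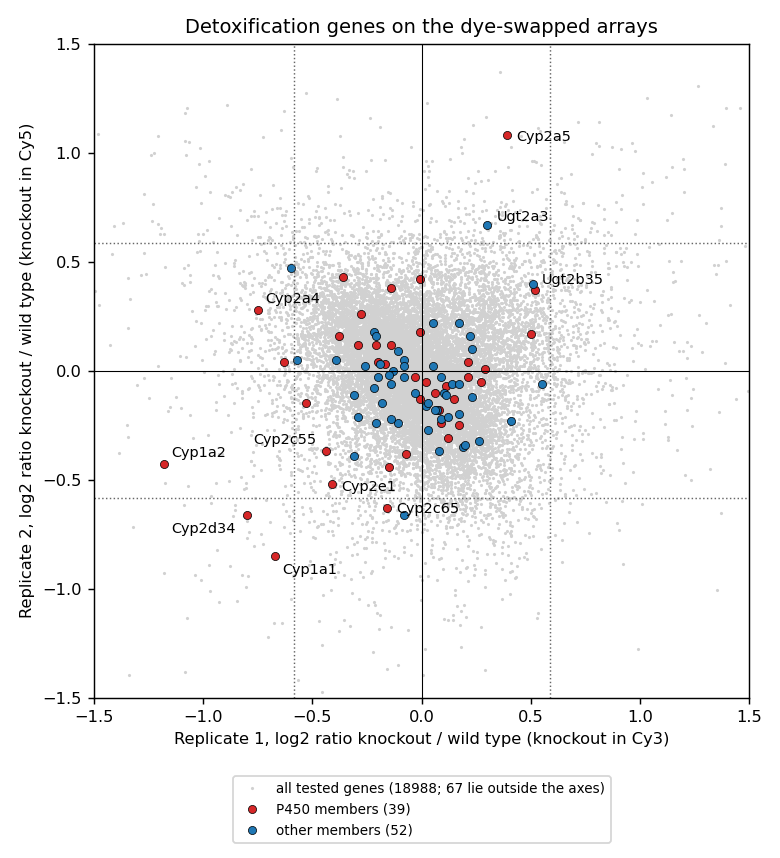
Log2 ratio of knockout over wild type on replicate 1 (horizontal axis) and replicate 2 (vertical axis) for all tested genes in grey, the 39 P450 members in red and the 52 other members in blue; dotted lines mark 1.5-fold. Cyp1a1 and Cyp2d34 lie in the lower left corner past both lines, no member lies in the upper right corner past both, and most members lie close to the centre.

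**Figure D2:**
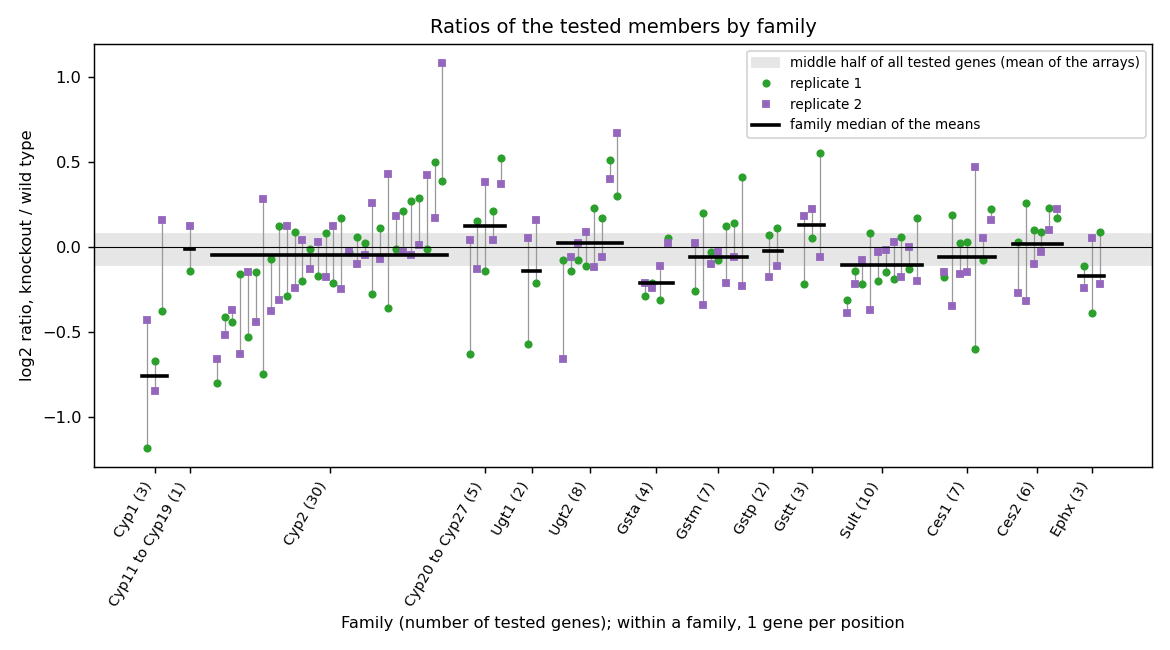
Log2 ratio of knockout over wild type of each of the 91 tested members on replicate 1 (circles) and replicate 2 (squares), joined by a line, with the median of each family as a black bar and the grey band from the lower to the upper quartile of all tested genes. The median of the 3 Cyp1 genes is -0.76, that of the 4 Gsta genes -0.22, and the other family medians lie between -0.17 and 0.13.

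Cyp1 enzymes oxidise planar aromatic compounds such as those of smoke and charred food, and are textbook targets of AHR. Cyp1a1 had a processed intensity of 25.6 in the RNA labelled knockout against 40.7 in wild type on replicate 1, and of 26.7 against 48.1 on replicate 2. All 4 values were dim but well above background. The log2 ratios were -0.67 and -0.85, with a mean of -0.76 ± 0.13 (SD, n = 2) and an adjusted p of 0.234 with limma. Under normexp background correction and loess, which adds an offset of 50 to every signal and so shrinks the ratios of probes this dim, the mean was -0.17.

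Cyp1a2, the main P450 of caffeine breakdown in liver, had an intensity of 9.80 in the RNA labelled knockout against 22.2 in wild type on replicate 1, and of 13.4 against 18.0 on replicate 2. The knockout channel was not well above background on either array, so the size of the mean ratio is uncertain. Averaged over the arrays, Cyp1a2 read 1.71-fold lower, from a wild-type mean of 4.32 and a knockout mean of 3.52 on the log2 intensity scale. Here the knockout was set to the lowest signal well above background of any probe where its own was dimmer. This floor is not the probe's own limit of detection, so 1.71 is not a lower limit. The separate log2 ratios were -1.18 and -0.43, so the difference on replicate 2 alone was smaller than this average. The adjusted p was 0.283 with limma. Loess gave a mean of 0.01, and a second probe of the gene was not well above background in any channel. Cyp1b1, the relative found more in connective tissue than in epithelium, read 456 against 591 and 571 against 510, so its log2 ratios of -0.38 and 0.16 had opposite signs. The Cyp1 median of -0.76 therefore rests on dim probes of neighbouring genes of chromosome 9.

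Taking the brightest tested probe of each gene, those of the Cyp1a pair and of Cyp2d34 had the lowest mean ratios of the members, so the first 30 of their 60 bases are given, 5′ to 3′, as the array design has them. They lie at chr9:57551535-57551594, chr9:57528863-57529512 and chr15:82446431-82446490 of mm9, on the plus, minus and minus strand. The longer interval of Cyp1a2 spans more than the probe's length, since the probe crosses an intron. The design does not say which exon or untranslated region the others fall in.
Cyp1a1: gataatttgctagtgtaacaaagaagattc
Cyp1a2: caagaacagtatccaagacatcacaagtgc
Cyp2d34: taccaggtctgtgctataatgcgtgagcaa

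AHR binds DNA as a dimer with ARNT at sites with the core GCGTG, read as CACGC on the other strand. The 250 bases before the start of Cyp1a1 and Cyp1a2 in RefSeq on GRCm38.p6, at chr9:57697363-57697612 on the plus strand and chr9:57683656-57683905 on the minus strand, are shown because these are the AHR target genes with the lowest ratios; capitals mark the core. Cyp1a1 holds 1 match, whose first base lies 54 bases upstream of the start, and Cyp1a2 holds none in this window.
Cyp1a1: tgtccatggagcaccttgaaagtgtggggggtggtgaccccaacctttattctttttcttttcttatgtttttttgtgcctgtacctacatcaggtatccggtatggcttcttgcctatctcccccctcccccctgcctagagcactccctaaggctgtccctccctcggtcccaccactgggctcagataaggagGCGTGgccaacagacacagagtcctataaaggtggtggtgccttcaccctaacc
Cyp1a2: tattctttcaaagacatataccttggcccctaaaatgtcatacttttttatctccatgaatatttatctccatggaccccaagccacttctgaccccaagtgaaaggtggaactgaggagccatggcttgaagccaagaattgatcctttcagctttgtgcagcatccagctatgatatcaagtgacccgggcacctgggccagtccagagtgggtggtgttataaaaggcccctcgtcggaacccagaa

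Counted from 250 bases before to 50 after the start, the core stood in 22 of 113 promoters of members, or 19.5%, against 32.4% of all 32851 promoters of the table. Of 97 members with a promoter there, 19 had a match, among them Cyp1b1, Gsta1, Gsta2, Gstm1, Gstp1, Sult1b1 and Sult1d1. The NRF2 core TGACNNNGC, on either strand, stood in 6 member promoters, or 5.31%, against 12.4% of all; these were of Gsta3, Gstm5, Gstm7, Cyp2c65, Cyp2c66 and Cyp2j6. Of the 16 tested members with the AHR core, Cyp1a1, Gsta1, Gsta2 and Sult1d1 were lower on both arrays, none was higher on both, and 12 had opposite signs. Of the 6 with the NRF2 core, 3 were lower on both arrays and 2 higher on both. For comparison, 27.5% of all tested members were lower on both arrays and 13.2% higher on both, against 21.1% and 20.2% of all tested genes. Whether a core goes with the ratios was not tested.

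The Cyp2 family is the largest, with 40 genes on the array and 30 tested. Both arrays were lower for 9 of these and higher for 3, and 18 had opposite signs, with a median of -0.05. In mice the family has grown by gene duplication into clusters. Of the genes here, 14 lie on chromosome 7, 11 on chromosome 19, 7 on chromosome 15 and 5 on chromosome 4. These counts are by chromosome and not by cluster: Cyp2e1, for one, lies apart from the other genes of chromosome 7.

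Cyp2d34 belongs to the Cyp2d subfamily, the mouse relatives of the human drug-metabolising enzyme CYP2D6. It read 130 in the RNA labelled knockout against 227 in wild type on replicate 1, and 150 against 237 on replicate 2, all well above background. The log2 ratios were -0.80 and -0.66, with a mean of -0.73 ± 0.10 (SD, n = 2) and an adjusted p of 0.263 with limma. Loess left -0.60 and -0.43, below 1.5-fold on replicate 2.

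By their brightest probes, the other 5 tested Cyp2d genes stayed near 0. Their means ran from -0.10 in Cyp2d12 to -0.02 in Cyp2d10, although they lie in the same cluster. Dimmer tested probes of these genes had means of -0.33 and -0.15 in Cyp2d22, -0.25 in Cyp2d10 and -0.06 in Cyp2d9. Cyp2d26 read 22155 against 19722 on replicate 1 and 18472 against 21961 on replicate 2, so that the genotypes changed places with the dyes.

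Cyp2e1, the ethanol-inducible P450, was lower on both arrays: 997 in the RNA labelled knockout against 1325 in wild type, and 1035 against 1485. Its mean log2 ratio was -0.47 ± 0.08 (SD, n = 2), with an adjusted p of 0.822 with limma, and loess gave much the same mean, -0.44.

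The Cyp2c subfamily metabolises arachidonic acid and many drugs, and Cyp2c55 and Cyp2c65 are its gut-rich isoforms. Cyp2c55 read 2923 in the RNA labelled knockout against 3955 in wild type, and 3636 against 4701, with a mean log2 ratio of -0.40 ± 0.05 (SD, n = 2). Cyp2c65 read 11910 against 13319, and 9022 against 13961. Its ratios of -0.16 and -0.63 had a mean of -0.40 ± 0.33 (SD, n = 2), so most of the difference came from replicate 2. Both had an adjusted p of 1 with limma. Under loess, Cyp2c65 went to 0.18 and -0.78, with opposite signs.

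Cyp2c66, the neighbour of Cyp2c65, had ratios of -0.07 and -0.38. Over the 9 tested Cyp2c genes, 3 or 33.3% were lower on both arrays, 1 or 11.1% was higher on both, and the median was -0.04. The shares over all tested genes were 21.1% and 20.2%. Cyp2c39, at 277 against 196 and 306 against 272, was the one higher on both, with a mean of 0.33. Cyp2c29, often the chief Cyp2c enzyme of mouse liver, was level, at 0.02 and -0.05.

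Among the other subfamilies, Cyp2a5, which oxidises coumarin and nicotine, was dim: 10.2 in the RNA labelled knockout against 7.81 in wild type, and 19.8 against 9.37. Wild type was not well above background on either array. Averaged over the arrays, the knockout mean was 3.84 and the wild-type mean 3.11 on the log2 intensity scale. With wild type set to the lowest signal well above background of any probe where it was dimmer, Cyp2a5 read 1.30-fold higher. This floor is not the probe's own limit of detection, so 1.30 is not a lower limit. The adjusted p was 0.356 with limma, and loess gave a mean of 0.05. Its near-copy Cyp2a4 had ratios of -0.75 and 0.28. Cyp2s1, an epithelial P450 of gut and skin, was level at -0.03 on both arrays, with intensities from 13676 to 14421. Cyp2j6, an epoxygenase of the small intestine, had ratios of 0.29 and 0.01.

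**Figure D3:**
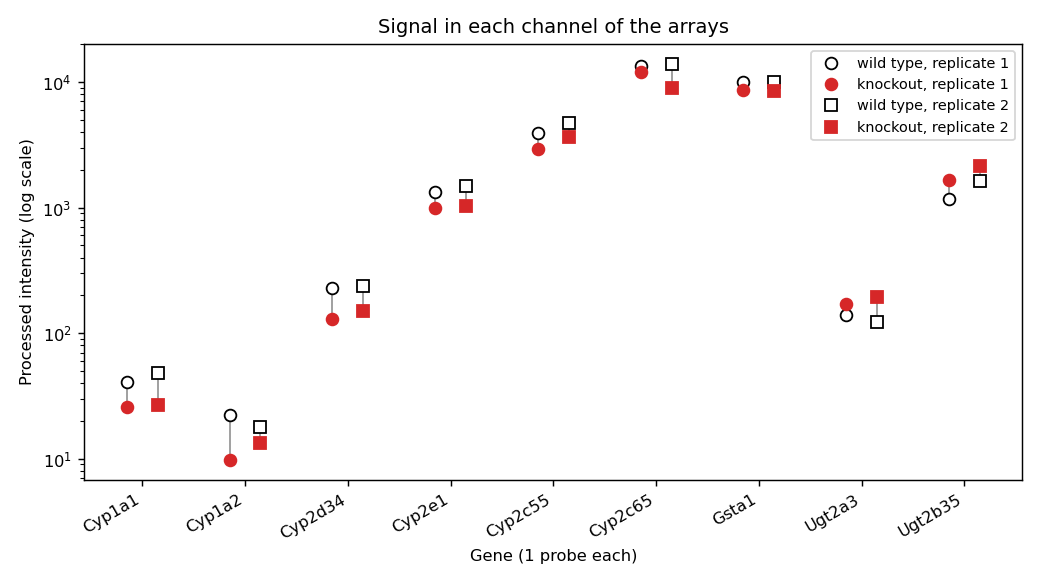
Processed intensity on a log axis of 9 genes in the wild-type channel (open) and the knockout channel (red) of replicate 1 (circles) and replicate 2 (squares). Cyp1a1 and Cyp1a2 lie below 50 in every channel, Cyp2d34 and Cyp2e1 are lower in the knockout on both arrays, and Ugt2a3 and Ugt2b35 are higher; levels of different probes are not comparable.

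Of the genes taken in by prefix, only Cyp17a1, a steroid hydroxylase, was tested from Cyp11 to Cyp19, at -0.14 and 0.12. Of the 5 tested genes from Cyp20 to Cyp27, 2 or 40.0% were higher on both arrays, against 20.2% of all tested genes. Cyp21a1, the adrenal steroid 21-hydroxylase, was dim, at 11.8 against 8.21 and 22.8 against 17.7, with an adjusted p of 0.888 with limma and a mean of 0 under loess. Cyp27a1, a sterol hydroxylase of bile acid synthesis, had ratios of 0.21 and 0.04.

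Carboxylesterases cleave ester and amide bonds of lipids and prodrugs; Ces1 enzymes are known best from liver and Ces2 enzymes from the small intestine. All 13 genes were tested, and all lie on chromosome 8. Means ran from -0.16 in Ces1c to 0.19 in Ces1e in the Ces1 family, and from -0.12 in Ces2b to 0.19 in Ces2c in the Ces2 family. Ces2c read 22591 in the RNA labelled knockout against 20100 in wild type, and 27526 against 23627, so its knockout value was higher on each array, with a mean ratio of 0.19 ± 0.04 (SD, n = 2).

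Ces2e read 66807 against 55751 on replicate 1 and 49047 against 61269 on replicate 2, with opposite signs. Ces2a likewise had 0.10 and -0.10, and Ces2g 0.23 and 0.10. In the Ces1 family, Ces1c was lower on both arrays, at -0.18 and -0.15, and Ces1e higher on both, at 0.22 and 0.16; Ces1d, at 0.02 and -0.16, and Ces1f, at 0.03 and -0.15, had opposite signs. None of the carboxylesterases had an adjusted p below 1 with limma.

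Some of these probes are close in sequence. The Ces1b probe shared 49 of 55 overlapping bases with a second Ces1c probe (mean ratio -0.18, not the one whose ratios are given above), and the Ces1d and Ces1h probes shared 44 of 54. Whether they hybridise with the other gene's RNA was not tested. The first 30 overlapping bases of both pairs are shown, with the bases that differ within a pair in capitals.
Ces1b: cgatgaaatcttctCtgtattTgggATtcc
Ces1c: cgatgaaatcttctTtgtattCgggGCtcc
Ces1d: cTccATttttaaAagaTggtGcctcagaag
Ces1h: cCccGAttttaaGagaGggtTcctcagaag

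The epoxide hydrolases open the reactive epoxides that P450s form. Ephx1, the microsomal enzyme, had ratios of 0.09 and -0.22. Ephx2, the soluble enzyme, which acts on fatty acid epoxides, read 11696 in the RNA labelled knockout against 15298 in wild type on replicate 1, but 13506 against 13062 on replicate 2. Its mean of -0.17 ± 0.31 (SD, n = 2) was within that spread, while loess gave -0.31 and -0.42. Ephx3 was dim and lower on both arrays, at -0.11 and -0.24.

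UDP-glucuronosyltransferases add glucuronic acid to bilirubin, steroids, bile acids and drugs. The Ugt1a genes are read from alternative first exons joined to shared last exons, so that a probe in the shared part measures all of them. The tested probe named Ugt1a6b lies at chr1:90115472-90115531 of mm9 and read 33884 in the RNA labelled knockout against 39306 in wild type, and 40121 against 35804. It is 1 of 2 probes of that name: the other, at chr1:90003830-90003889 and nearer to the start of the transcript, was not well above background in any channel, nor was the probe of Ugt1a9. Ugt1a1, the bilirubin enzyme, whose probe lies at chr1:90108880-90108939, read 334 against 494 and 457 against 440. Its ratios of -0.57 and 0.05 differed between arrays more than the genotypes did.

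In the Ugt2 family, 8 of 9 genes were tested, with 2 higher on both arrays, 2 lower on both, 4 of opposite sign, and a median of 0.02. Ugt2b35 read 1649 in the RNA labelled knockout against 1162 in wild type, and 2141 against 1626. Its mean log2 ratio was 0.45 ± 0.08 (SD, n = 2), with an adjusted p of 0.869 with limma, and under loess 0.49. Ugt2a3 read 172 against 140, and 194 against 122, with a mean of 0.48 ± 0.26 (SD, n = 2), an adjusted p of 0.809 with limma and 0.31 under loess. Ugt2b35 and Ugt2a3 were thus higher on both arrays, as were 20.2% of all tested genes.

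The other Ugt2 genes were level or dim. Ugt2b34 had ratios of -0.14 and -0.06, and Ugt2b5, an abundant isoform of mouse liver, 0.17 and -0.06. Ugt2a1, best known from the olfactory epithelium, was dim, at 18.5 against 19.6 and 15.1 against 23.8, and without the filter on dim probes another of its probes was taken, with a mean of 0.75 in place of -0.37. The probes of Ugt2b35 and Ugt2a3 lie at chr5:87441721-87441780 and chr5:87754406-87754465 of mm9. Every Ugt2 gene lies in this cluster of chromosome 5, and the other 6 tested there had means from -0.37 in Ugt2a1 to 0.06 in Ugt2b5.

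Glutathione S-transferases join glutathione to electrophiles. The 4 Gsta genes, of the alpha class that is common in gut and liver, had the lowest median after Cyp1, at -0.22. Gsta1 read 8570 in the RNA labelled knockout against 9915 in wild type, and 8518 against 10025. Gsta2 read 4567 against 5681, and 4902 against 5291. Gsta4, which removes the lipid peroxidation product 4-hydroxynonenal and was printed in 10 spots an array, read 704 against 859, and 738 against 854. Each of these 3 genes was lower on both arrays, as were 21.1% of all tested genes. Their mean ratios were -0.22 ± 0.02 for Gsta1, -0.21 ± 0.14 for Gsta2 and -0.25 ± 0.05 for Gsta4 (SD, n = 2), and under loess -0.20, -0.16 and -0.17. None had an adjusted p below 1 with limma.

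Gsta1, Gsta2 and Gsta4 lie together on chromosome 9, and Gsta3 on chromosome 1. Gsta3 was level with its brightest probe, at 0.05 and 0.02, but its second probe had a mean of -0.30, so the probes of this gene do not give the same answer. The 7 Gstm genes, of chromosome 3, stayed within means of -0.12 and 0.09: Gstm1 had ratios of 0.14 and -0.06, Gstm3 -0.03 and -0.10, and Gstm7 -0.08 and -0.03. Gstp1, the pi-class enzyme, read 83305 against 77187 and 76199 against 82264, which is a mean of 0 ± 0.16 (SD, n = 2). In the theta class, Gstt1 had ratios of -0.22 and 0.18, and Gstt3 0.05 and 0.22.

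Sulfotransferases transfer sulfate to phenols, steroids and bile acids. Of 18 Sult genes, 10 were tested; 5 were lower on both arrays and 5 had opposite signs, none was higher on both, and the median was -0.10. Sult1e1, the estrogen sulfotransferase, was dim, at 46.9 in the RNA labelled knockout against 58.3 in wild type, and 47.8 against 62.5. Its mean ratio was -0.35 ± 0.05 (SD, n = 2), with an adjusted p of 1 with limma and -0.10 under loess.

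The other named sulfotransferases were closer to 0. Sult1b1, a phenol and thyroid hormone sulfotransferase of the gut, read 48946 against 53468, and 50228 against 50106. Sult1d1, a catecholamine sulfotransferase, had ratios of -0.20 and -0.03, and Sult1c2 -0.22 and -0.08. Sult1a1, the main phenol sulfotransferase, had 0.06 and -0.18, Sult2b1, which sulfates cholesterol, -0.19 and 0.03, and Sult5a1 -0.14 and -0.22.

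The 27 members not tested had no probe well above background for one genotype on both arrays. They were Cyp2a12, Cyp2a22, Cyp2ab1, Cyp2b10, Cyp2b23, Cyp2c38, Cyp2c54, Cyp2d13, Cyp2g1 and Cyp2j5 of Cyp2; Cyp11a1, Cyp11b2, Cyp19a1, Cyp24a1 and Cyp26a1; Ugt1a9 and Ugt2b1; Gstt4; Ephx4; and 8 sulfotransferases, Sult2a3, Sult2a4, Sult2a5, Sult2a6, Sult2a7, Sult3a1, Sult3a2 and Sult6b1. Several are typical of liver or steroid-forming tissue, such as the Sult2a cluster and Cyp2b10, the standard target of the receptor CAR. Ugt1a6a has no probe under that name.

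Of 21 members with several tested probes, 13 had probe means of 1 sign and the others did not, and the median range between probes was 0.12. The widest range was 1.58, in Cyp2b13, where a dim probe read 4.73 in the knockout channel against 29.6 in wild type on replicate 2, while it read 20.1 against 21.7 on replicate 1 and the gene's other probe had ratios of -0.01 and 0.42.

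**Figure D4:**
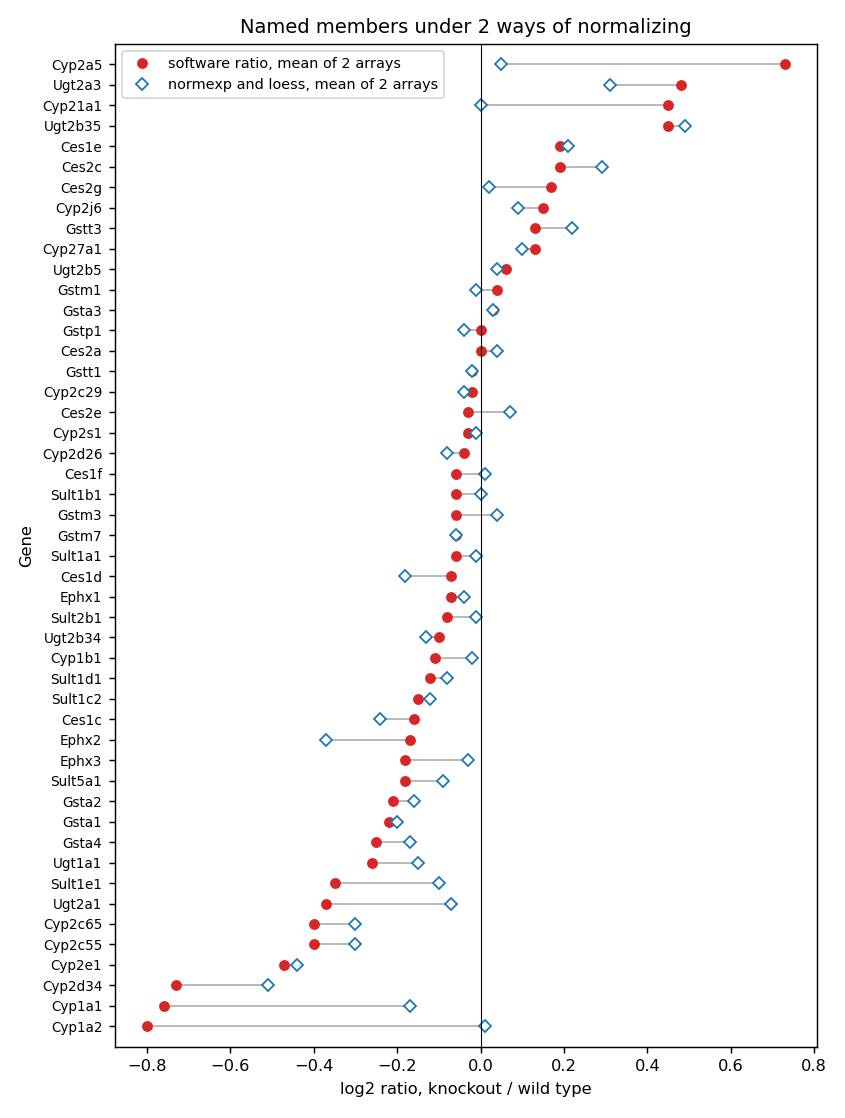
Mean log2 ratio of knockout over wild type of the 48 named members, as the scanner software's ratio (red circles) and after normexp background correction and loess (open diamonds), joined by a line. Cyp1a1, Cyp1a2, Cyp2a5 and Cyp21a1, which are dim, lose most of their ratio, whereas Cyp2e1 and Ugt2b35 stay within 0.04 of it.

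The genes that regulate or supply these enzymes were read from 6 lists. Beside their counts stands the share over all tested genes, of which 21.1% were lower and 20.2% higher on both arrays. Of 16 receptors and regulators, none was called by limma, none was 1.5-fold apart on both arrays, and 5 had higher and 2 had lower values on both, with a median of -0.02. Ahr, the receptor gene, read 1248 in the RNA labelled knockout against 1126 in wild type on replicate 1, with ratios of 0.15 and 0.16. Tiparp and Ahrr, which like Cyp1a1 are AHR targets and feed back on it, had ratios of -0.02 and -0.09, and of -0.02 and -0.20. Nqo1, an enzyme driven by both AHR and NRF2, had -0.06 and 0.07. Hnf4g, a factor of gut identity, had a mean of 0.20, and Keap1, which holds NRF2 back, 0.19.

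P450s need electrons from P450 reductase, and haem. The 13 genes listed for this include Hmox1, which breaks haem down. Of the 13, 12 were tested, 1 was lower on both arrays and none was higher on both. Por, the reductase, had -0.18 and 0.13, and Fech, the last enzyme of haem synthesis, -0.04 and -0.16. The 5 genes listed for the UDP-glucuronic acid that Ugt enzymes use include Gusb, which removes glucuronic acid from conjugates. Of the 5, Ugp2 was the 1 higher on both arrays, at 0.22 and 0.23.

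PAPS is the sulfate donor of the Sult enzymes. The list of 10 genes around it also holds genes that do not make PAPS, such as Bpnt1, Bpnt2, Slc26a3 and Sts. Of the 10 listed genes, 7 or 70.0% were lower on both arrays, against 21.1% of all tested genes. None was higher on both, and the median was -0.08. The means of the 7 ran from -0.55 in Slc26a1 to -0.07, -0.06 and -0.03 in the genes closest to 0. With the mean of a gene's probes instead of its brightest, 3 were lower on both, and under loess 4. Slc26a1, a sulfate carrier, was dim and had ratios of -0.65 and -0.45, with an adjusted p of 0.605 with limma and a mean of -0.55 that became -0.14 under loess, and Slc26a2, another, -0.19 and -0.35; Slc35b3 and Bpnt1 were closer to 0, with means of -0.14 and -0.09. None was called by limma.

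Of 11 genes listed for glutathione supply or breakdown, 1 was at least 1.5-fold lower on both arrays. This was Chac1, which breaks glutathione down and is a stress-response gene, at 513 in the RNA labelled knockout against 898 in wild type on replicate 1, with ratios of -0.81 and -0.99 and an adjusted p of 0.101 with limma. Gclc, the rate-limiting enzyme of glutathione synthesis, had 0.08 and 0.16, and Oplah -0.30 and -0.05. Of 42 other phase I and II genes, 37 were tested, with a median of -0.08, and none was called by limma. On both arrays 16 or 43.2% were lower, against 21.1% of all tested genes, and 3 or 8.11% were higher, against 20.2%. Under loess 9 were lower and 6 higher on both. Ranked on the array where each ratio was smaller, the first were Pon1, at -0.21 and -0.52, Adh4, at 0.49 and 0.19, Akr1b8, at -0.13 and -0.50, and Akr1b7, at -0.27 and -0.12.

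**Figure D5:**
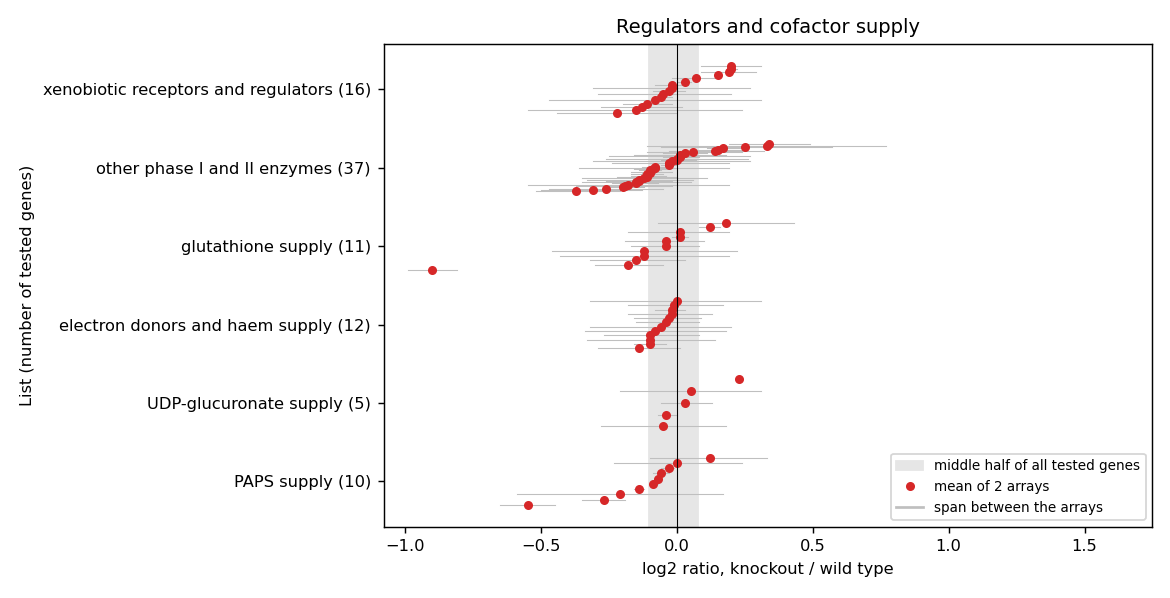
Mean log2 ratio of knockout over wild type (points) and the span between the arrays (lines) for the tested genes of 6 lists of regulators, cofactor supply and other enzymes; the grey band runs from the lower to the upper quartile of all tested genes. Chac1 is the single gene below -0.75, and most other genes lie within 0.3 of 0.

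Many of these enzymes differ in level along the gut and between gut and liver, and in bulk RNA fewer cells of a type and less RNA per cell cannot be told apart. Over all tested genes, 20.2% were higher and 21.1% lower on both arrays. Of 8 markers of proximal small intestine, 7 were tested and 4 were higher on both arrays, with limma calls for Lct (mean 1.69, adjusted p 0.000833) and Fabp1 (1.30, adjusted p 0.00833). Slc40a1 was lower on both, at -0.60 and -0.13. Their summed intensity was 26318 and 26945 in the RNA labelled knockout against 19519 and 17971 in wild type, of which Fabp1 gave 15165 and 14062 against 5778 and 6094. Of 7 distal markers, none was higher and 3 were lower on both arrays, with sums of 263065 and 291093 against 308932 and 270737. Of 12 hepatocyte markers, 10 were tested and 4 were lower on both arrays, with a limma call for Tat (-1.11, adjusted p 0.0283), while Alb and Fgg were not well above background in any channel; their sums were 2551 and 2510 against 3998 and 4368, of which Tat gave 1273 and 1333 against 2683 and 2928. Of 6 skeletal muscle markers, Pvalb, Myh4, Tnnt3 and Tnnc2 were called higher by limma, Acta1 had -0.14 and -0.04, and Ckm 0.28 and -0.17. Pvalb was very dim in wild type, at 45.3 and 56.8 in the RNA labelled knockout against 2.81 and 7.83. Its mean of 3.43 became 0.53 under loess. The sums of the 6 markers were 4007 and 3935 against 2300 and 2278. The kidney list had 3 of 5 tested genes higher on both arrays, with a call for Kap (2.44, adjusted p 1.39e-05) and sums of 571 and 586 against 342 and 310, of which Kap gave 322 and 288 against 56.4 and 56.1. The part of these shifts in the ratios of the members was not tested.

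Of the remaining marker lists, no gene was called by limma. Sums in the RNA labelled knockout and in wild type were 109883 and 105988 against 104953 and 114433 for smooth muscle, 8787 and 8549 against 7489 and 7463 for immune cells, 6277 and 6740 against 6107 and 6882 for colon, and 180 and 243 against 256 and 193 for stomach, where Gkn1 and Gkn2 were not well above background in any channel.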

How the data were processed

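Per the file headers, the authors' deposited scanner files come from Agilent Feature Extraction 11.5.1.1 (9.5 per the submitters' processing notes), design 014868 with mm9 coordinates; their processed intensity is background-subtracted, detrended over the surface and dye-normalized, and the deposited log10 ratio is Cy5 over Cy3. The deposited value table holds the same log10 ratios, rounded.

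Here, each log10 ratio was turned to log2 of knockout over wild type. Marked outlier spots (133 and 222 of 43379 spots) were left out, spots of a probe averaged, and a probe was kept where both arrays had at least 0.5 of its spots well above background in one and the same genotype. The brightest of a gene's probes was tested with limma 3.58.1 in R 4.3.3 (lmFit and eBayes against 0, 1 residual degree of freedom, no dye term), with Benjamini-Hochberg adjustment over 18988 genes at 0.05; the script was tested on simulated data. With 1 residual degree of freedom, the test leans on the spread pooled over all genes. SD is over the 2 arrays, and p-values measure only the spread between them. Symbols followed RefSeq by transcript accession; no member was renamed, and none ends in -ps. Loess values come from normexp with an offset of 50 and within-array loess. Coordinates are those of the array design, and promoters are RefSeq's on GRCm38.p6.

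Members and lists were chosen with earlier results of these data known. Named are members past 1.5-fold on both arrays or called by limma, up to 4 per family with the same sign on both arrays and the largest smaller ratio, a set of well-studied isoforms, and up to 4 genes per list by the same measure; other genes are named where a range ends, a count is small, or a named gene has a close relative, partner or shared regulator, after their values were seen. The values of 1 gene of the lists that this rule names are not reported here.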

Additional observations from a re-analysis of the deposited data

How the results depend on the processing

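Under normexp and loess, 0 members were at least 1.5-fold lower on both arrays, and the medians became -0.02 for Cyp1, 0 for Cyp20 to Cyp27, -0.05 for Sult and -0.04 for Ephx; loess ratios of the arrays correlated at -0.39 over all tested genes, and loess gave 0 limma calls where the software ratio gave 38. With signals well above background required for both genotypes, the Cyp1 median was -0.43, since Cyp1a2 dropped out. Without a filter on dim probes, medians were 0.01 for Cyp20 to Cyp27 and -0.04 for Sult. With the mean of the tested probes, they were -0.07 for Cyp2 and -0.13 for Sult. Of the 48 named members, the mean ratio changed sign under loess for Ces1f (0.01), Ces2e (0.07), Cyp1a2 (0.01), Gstm1 (-0.01) and Gstm3 (0.04), with the mean of the tested probes for Ephx1 (0.01) and Gsta3 (-0.13), and without a filter for Ugt2a1 (0.75); none was called by limma. The cause of these moves was not tested. Limma called no member under any of the 7 refits, and the deposited value table, outlier spots kept and median centring changed none of the member counts by more than 1.5 times; median centring raised the limma calls over all genes to 97, and the mean of the tested probes lowered them to 16.

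With 1 array left out there is no test. Members at least 1.5-fold higher on the array that remains numbered 0 to 2, and 1.5-fold lower 4 to 6; higher at all 36 to 42, and lower at all 49 to 55. Medians on a single array were -0.67 to -0.43 for Cyp1, -0.05 to -0.02 for Cyp2 and -0.15 to -0.13 for Sult, and of opposite signs for Gstm (-0.10 to 0.12), Ugt1 (-0.39 to 0.11), Ugt2 (-0.02 to 0.04), Gstp (-0.14 to 0.09), Ces1 (-0.15 to 0.02), Ces2 (-0.06 to 0.13) and Cyp17a1 alone (-0.14 to 0.12). Each array holds both genotypes and its ratio is the paired difference, so the limma test already used this pairing. Signals near background limit the ratios of Cyp1a2, Cyp2a5 and Cyp21a1, which were not well above background in every channel.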
